A study of Mus musculus with 34 samples.

Results

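The endothelial marker genes *Pecam1*, *Cdh5*, *Kdr*, *Flt1*, *Tek*, *Tie1*, *Emcn*, *Eng*, *Cldn5* and *Sox17* were followed in mRNA-seq of mouse limb buds with and without *Hnrnpk*. They were chosen by gene symbol, and all 10 were present among the 22040 genes of the expression table. The study removed *Hnrnpk*, an RNA- and DNA-binding protein, from the limb bud to ask how it acts on gene expression during limb development. WT limb bud cells (n = 3) were compared with CKO cells (n = 3), both at E11.5. The CKO group is *Prrx1-Cre;Hnrnpk* fl/fl, in which Cre removes floxed exons of *Hnrnpk*, and for the WT group no other allele or agent is given in the labels. The *Prrx1* limb enhancer that drives this Cre is known for its activity in limb mesenchyme and not in endothelium, so endothelial cells in a CKO limb bud lie beside cells that lost *Hnrnpk*, and recombination in them was not measured here. The sources used here do not say whether an RNA-seq library was made from 1 embryo or from several, so p values measure the spread between these libraries. The other 28 of the 34 samples in the series are from other assays and were not analysed here.

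Endothelial cells line the blood vessels, and a limb bud of this age holds a dense capillary network that is already perfused. VEGF from the surrounding mesenchyme signals to endothelial cells through the receptor encoded by *Kdr*, while the receptor encoded by *Flt1* binds VEGF tightly and limits its supply. Angiopoietins signal through the receptor encoded by *Tek*, with *Tie1* as its partner, and steady the vessel wall. Cadherin and claudin proteins hold the cells to each other, and transcription factors of the ETS and SoxF families keep their identity.

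Promoters are shown for the member that stood furthest from 0 in the test (*Tie1*) and for members of contrasting profile over the libraries (*Kdr* and *Flt1*, highest in the first WT library, and *Emcn*, lowest in the first CKO library). The windows hold 250 bases before and 50 bases after the RefSeq start on GRCm38.p6, written 5′ to 3′ on the strand of the gene. Capitals mark the letters AGGAAG or CGGAAG, or the reverse complement of either. They were searched because ETS factors are known regulators of endothelial genes, and the shorter ETS core GGAA was not marked.
*Tie1*, chr4:118489800-118490099, minus strand: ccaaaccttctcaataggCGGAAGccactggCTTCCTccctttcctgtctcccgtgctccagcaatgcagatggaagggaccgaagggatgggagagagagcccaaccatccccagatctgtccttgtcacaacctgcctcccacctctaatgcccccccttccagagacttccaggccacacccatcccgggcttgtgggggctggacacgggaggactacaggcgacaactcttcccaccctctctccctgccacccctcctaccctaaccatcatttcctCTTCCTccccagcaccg
*Kdr*, chr5:75978406-75978705, minus strand: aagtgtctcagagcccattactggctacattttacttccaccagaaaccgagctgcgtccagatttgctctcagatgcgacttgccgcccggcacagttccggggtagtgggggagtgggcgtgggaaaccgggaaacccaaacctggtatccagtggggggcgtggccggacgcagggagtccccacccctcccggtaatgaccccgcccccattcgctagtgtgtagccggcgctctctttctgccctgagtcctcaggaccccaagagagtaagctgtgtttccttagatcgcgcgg
*Flt1*, chr5:147725962-147726261, minus strand: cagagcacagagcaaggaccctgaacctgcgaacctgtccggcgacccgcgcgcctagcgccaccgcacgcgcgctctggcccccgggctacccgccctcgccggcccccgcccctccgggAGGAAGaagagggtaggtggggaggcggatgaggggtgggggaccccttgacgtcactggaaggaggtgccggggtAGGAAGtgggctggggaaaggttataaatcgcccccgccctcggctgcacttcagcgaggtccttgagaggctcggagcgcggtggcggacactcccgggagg
*Emcn*, chr3:137340828-137341127, plus strand: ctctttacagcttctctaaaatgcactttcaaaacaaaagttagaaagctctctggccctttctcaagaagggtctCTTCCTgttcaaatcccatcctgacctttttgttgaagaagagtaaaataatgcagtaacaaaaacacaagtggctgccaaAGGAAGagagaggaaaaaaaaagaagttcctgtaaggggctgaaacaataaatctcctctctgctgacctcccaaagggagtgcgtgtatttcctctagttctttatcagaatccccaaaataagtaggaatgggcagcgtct

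A window was held for 7 of the 10 members, and the 3 not printed are those of *Eng*, *Tek* and *Cldn5*. AGGAAG or CGGAAG, on either strand, stood in 4 of these 7 windows and in 46.47% of all 32851 windows. There were 3 matches in *Tie1* and 2 each in *Flt1*, *Emcn* and *Eng*. No match was found in the windows of *Kdr*, *Tek* and *Cldn5*, which says only that these letters are not there. The shorter core GGAA was not counted in any window. The letters CCCC, searched on both strands because *Hnrnpk* is known to prefer runs of cytosine, stood in 7 of 7 windows and in 86.44% of all windows. Neither share sets the members apart from other promoters by itself, and no binding was measured at these windows here.

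Levels are FPKM, that is, reads scaled to exon length and to library size, so they may be set beside each other between genes. Differences between groups are on the log2(FPKM + 0.1) scale, CKO minus WT, and the test is limma across the 12305 genes with a mean of at least 0.5 FPKM. The divisors recovered from the FPKM ranged from 18026062 to 23935514 reads, and the reads on listed genes from 17143034 to 24627737. *Hnrnpk* itself was 193, 195 and 185 FPKM in WT replicates 1, 2 and 3 and 127, 142 and 135 FPKM in CKO replicates 1, 2 and 3. Each CKO library lay below each WT library, as for 8.86% of all tested genes. The difference was -0.50 ± 0.13 (SE), with an adjusted p of 0.334 by limma, or 0.0575 with the replicate block. It was 0.0374 with replicates 2 and 3 alone, 0.0237 by voom with the block and 0.0039 without globin genes and with the block. Over all alternatives it reached 0.99995. The level counts all exons of *Hnrnpk*, so it does not measure the loss of the floxed exons itself. WT replicate 1 and CKO replicate 1 stood apart from the other libraries on the first principal component, which held 52.6% of the variance, while the second, with 26.0%, separated WT from CKO. Globin genes took 13.7% to 20.6% of the summed FPKM in WT, with replicate 1 the lowest, and 11.7% to 32.4% in CKO, with replicate 1 the lowest and replicate 2 the highest. Results for the members are therefore given with and without the first replicates. The replicate block pairs libraries of equal number, which the labels do not give as pairs, and for numbers 2 and 3 the correlations between libraries do not settle it.

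No endothelial marker gene passed the adjusted threshold of 0.05 between CKO and WT. Of the 9 members tested, 0 were called by limma, against 0.065% of all tested genes in either direction and 0.00813% lower in CKO. *Tie1* was the 1 member with an unadjusted p under 0.05, against 5.46% of all tested genes lower in CKO and 8.31% in either direction, and voom on the recovered reads likewise called 0 with 1 unadjusted. All 9 had a difference below 0, against 49.1% of all tested genes. Their median was -0.30 and their range was -0.54 to -0.02, while the median of all tested genes was 0.0048 on the same log2 scale. In tissue of mixed cells, fewer endothelial cells and less of these transcripts per endothelial cell cannot be told apart. The members share their cells and libraries and are not 9 independent readings, and the libraries of replicate number 1 set most of their median, as the values of each gene show.

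**Figure D1:**
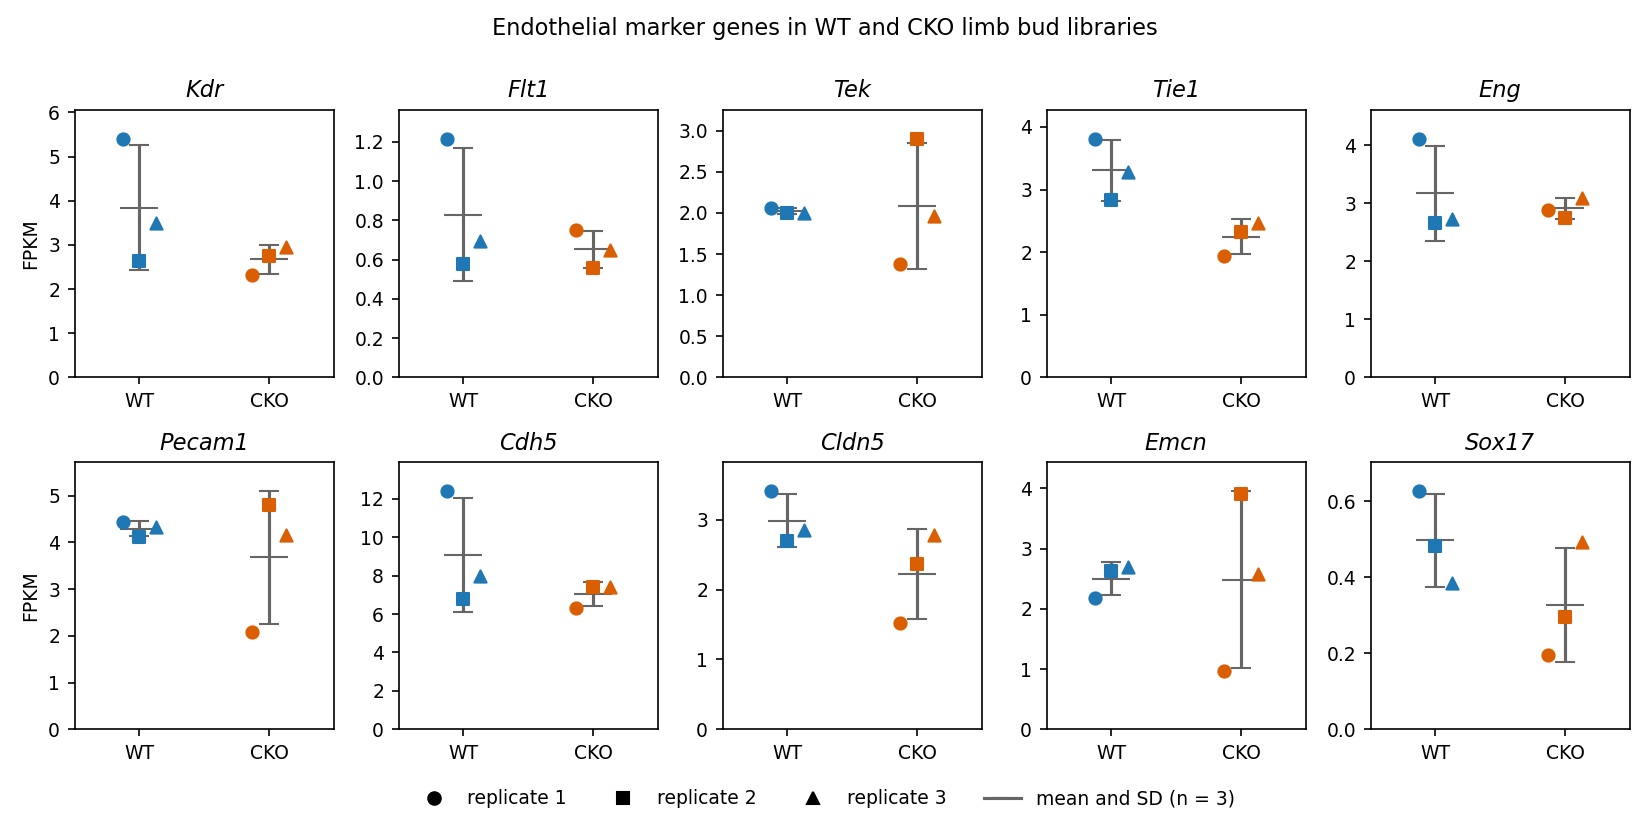
FPKM of each endothelial marker gene in the 3 WT libraries (blue) and the 3 CKO libraries (orange), with the replicate number as the symbol and the group mean and SD (n = 3) as grey bars. Each axis starts at 0 and has its own scale. The first WT replicate is the highest WT value for all genes but *Emcn*, and the first CKO replicate is the lowest CKO value for all genes but *Flt1* and *Eng*; in *Tie1* alone the groups do not overlap.

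*Kdr* encodes the main signalling receptor for VEGF (chr5:75932827-75978458, minus strand, GRCm38). It was 5.41, 2.62 and 3.50 FPKM in WT replicates 1, 2 and 3 and 2.31, 2.76 and 2.94 FPKM in the matching CKO replicates, from 378 to 880 reads per library. WT replicate 1 stood at 1.77 times the mean of the other WT libraries, and WT replicate 2 lay among the CKO values, so the groups overlapped. The means were 3.84 ± 1.42 FPKM (SD, n = 3) in WT and 2.67 ± 0.325 FPKM (SD, n = 3) in CKO, a difference of -0.45 with a 95% interval of -1.04 to 0.13. The adjusted p was 0.705 by limma, and 0.243 with the replicate block.

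*Flt1*, whose product binds VEGF and withholds it from *Kdr*, was the least abundant of the tested members (chr5:147561604-147726011, minus strand). Its level was 1.22, 0.575 and 0.696 FPKM in WT replicates 1, 2 and 3. In CKO replicates 1, 2 and 3 it was 0.749, 0.557 and 0.649 FPKM, so the groups overlapped, with CKO replicate 2 just below the lowest WT value. WT replicate 1 stood above all other libraries, and without it the difference moved from -0.25 to 0.03. The adjusted p with all libraries was 0.867 by limma.

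*Tek* encodes the angiopoietin receptor (chr4:94739289-94874976, plus strand). Its WT levels were close to each other, at 2.06, 2.004 and 2.004 FPKM in replicates 1, 2 and 3. Its CKO levels lay on both sides of them, at 1.38, 2.90 and 1.97 FPKM. The CKO mean of 2.08 ± 0.767 FPKM (SD, n = 3) was level with the WT mean of 2.02 ± 0.0324 FPKM (SD, n = 3). The log2 difference was -0.02, with a 95% interval of -0.60 to 0.56. The CKO libraries spread more widely than the WT libraries, whose closeness rests on 175 to 226 reads in 3 libraries.

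*Tie1*, the partner receptor of *Tek*, was the member whose groups stood apart (chr4:118471191-118490061, minus strand). It was 3.81, 2.84 and 3.28 FPKM in WT replicates 1, 2 and 3 and 1.93, 2.33 and 2.47 FPKM in CKO replicates 1, 2 and 3. Each CKO library was below each WT library, as for 8.86% of all tested genes. The mean was 3.31 ± 0.488 FPKM (SD, n = 3) in WT and 2.24 ± 0.279 FPKM (SD, n = 3) in CKO, a CKO level of 0.678 times WT. The difference of -0.54 had a 95% interval of -0.92 to -0.15, an unadjusted p of 0.0123 and an adjusted p of 0.430 by limma. The exact two-sided permutation test of its 6 values gave p = 0.1, the smallest that 3 against 3 libraries allow. With the replicate block the adjusted p was 0.0884, and over the alternatives it ranged from 0.0441 to 0.99995. *Tie1* was lower in CKO within each replicate number, by -0.95, -0.28 and -0.39, and without both first replicates the difference was -0.34 with an adjusted p of 0.141.

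**Figure D2:**
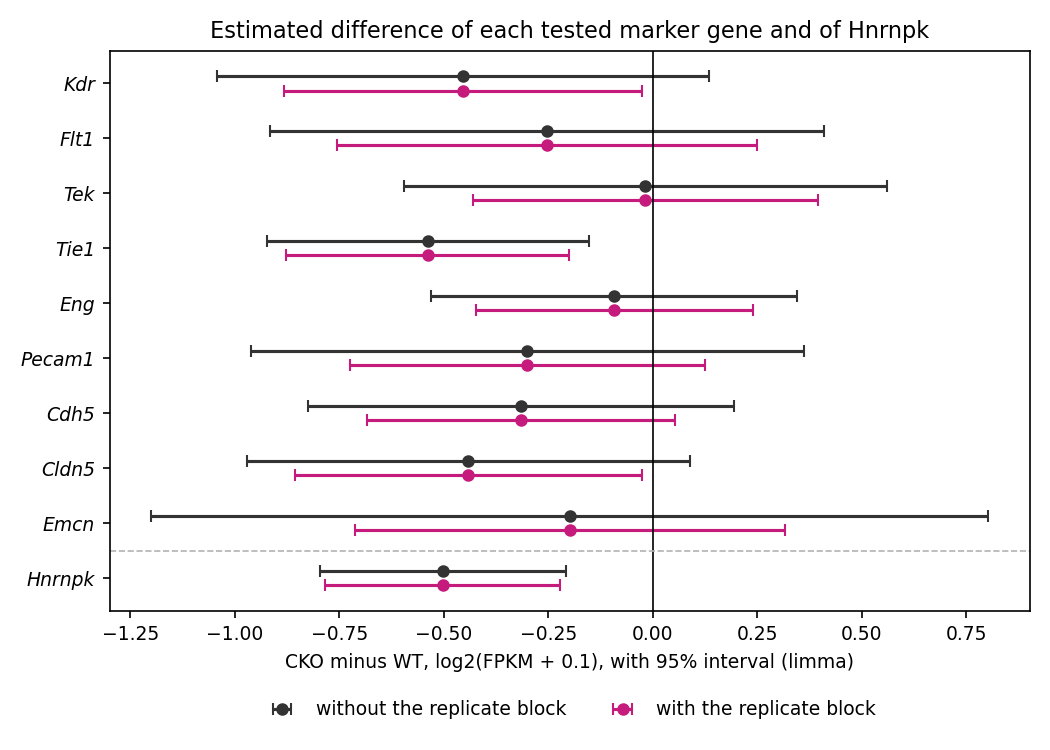
Difference between CKO and WT on the log2(FPKM + 0.1) scale for the 9 tested marker genes and for *Hnrnpk*, with 95% intervals from limma without (black) and with (pink) the replicate block. The interval of *Tie1* lies below 0 in both fits, those of *Kdr* and *Cldn5* only with the block, and those of the other 6 marker genes include 0 in both.

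*Eng* encodes endoglin, a co-receptor for ligands of the TGF-beta family (chr2:32646595-32682669, plus strand), and 61 of its exon bases overlap *Fpgs* on the other strand. It was 4.11, 2.66 and 2.73 FPKM in WT replicates 1, 2 and 3 and 2.88, 2.75 and 3.10 FPKM in the CKO replicates. The 3 CKO libraries lay between the first WT library and the other 2. The difference was -0.09 with an adjusted p of 0.927 by limma, and it was 0.10 without WT replicate 1.

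*Pecam1* encodes the adhesion molecule CD31 found along endothelial contacts and also on platelets and some leukocytes (chr11:106654217-106750628, minus strand). Its level was 4.44, 4.12 and 4.34 FPKM in WT replicates 1, 2 and 3. In CKO it was 2.08 FPKM in replicate 1 against 4.80 and 4.17 FPKM in replicates 2 and 3. CKO replicate 1 alone lay below the WT range, at 0.463 times the mean of the other CKO libraries. The difference of -0.30 (adjusted p = 0.848 by limma) became 0.06 without that library.

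*Cdh5* encodes VE-cadherin, the cadherin of the endothelial adherens junction (chr8:104101625-104144511, plus strand), and was the most abundant member. It was 12.4, 6.79 and 7.95 FPKM in WT replicates 1, 2 and 3, with WT replicate 1 at 1.68 times the mean of the other WT libraries. In CKO replicates 1, 2 and 3 it was 6.30, 7.42 and 7.39 FPKM, so that CKO replicates 2 and 3 fell between WT replicates 2 and 3. The means were 9.05 ± 2.97 FPKM (SD, n = 3) and 7.04 ± 0.640 FPKM (SD, n = 3). The difference was -0.32, with a 95% interval of -0.82 to 0.19 and an adjusted p of 0.776 by limma, and it was 0.01 without both first replicates.

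*Cldn5*, the main claudin of endothelial tight junctions, has 1 exon (chr16:18776847-18778262, plus strand) and only 39 to 94 reads per library. It was 3.41, 2.69 and 2.85 FPKM in WT replicates 1, 2 and 3 and 1.52, 2.36 and 2.79 FPKM in CKO replicates 1, 2 and 3. CKO replicate 3 lay above WT replicate 2, so the groups overlapped by this pair alone. The CKO mean was 0.745 times the WT mean, and the difference of -0.44 had a 95% interval of -0.97 to 0.09 and an adjusted p of 0.680 by limma. Without both first replicates the difference was -0.11.

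*Emcn* encodes endomucin, a sialomucin of capillary and venous endothelium (chr3:137341067-137432185, plus strand), and was the most variable member in CKO. It was 2.18, 2.63 and 2.70 FPKM in WT replicates 1, 2 and 3 and 0.970, 3.91 and 2.58 FPKM in CKO replicates 1, 2 and 3. CKO replicate 1 was the lowest and CKO replicate 2 the highest of all 6 libraries. The group means were nearly equal, at 2.502 ± 0.277 and 2.49 ± 1.47 FPKM (SD, n = 3 each), whereas the log2 difference was -0.20, with an adjusted p of 0.932 by limma and a 95% interval of -1.199 to 0.80. Without CKO replicate 1 it was 0.34.

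*Sox17*, a SoxF transcription factor gene of arterial endothelium (chr1:4490931-4497354, minus strand), had a mean under the 0.5 FPKM limit and was not tested with the others. It was 0.628, 0.482 and 0.384 FPKM in WT replicates 1, 2 and 3 from 54, 55 and 40 reads. In CKO replicates 1, 2 and 3 it was 0.197, 0.296 and 0.492 FPKM from 17, 27 and 56 reads. The exact Poisson interval, which covers counting error only, was 0.115 to 0.315 FPKM for CKO replicate 1 and 0.472 to 0.819 FPKM for WT replicate 1, so these libraries differed by more than counting error while the groups overlapped. With no filter on low values the difference was -0.52, with a 95% interval of -1.23 to 0.19 and an adjusted p of 0.721 by limma. Of its exon bases 804 overlap *Gm37587* on the other strand.

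The order of levels in WT was *Cdh5*, *Pecam1*, *Kdr*, *Tie1*, *Eng*, *Cldn5*, *Emcn*, *Tek*, *Flt1* and *Sox17*, from 9.05 to 0.498 FPKM. Between neighbours in this order, the WT ranges were apart only between *Cdh5* and *Pecam1*, between *Emcn* and *Tek* and between *Tek* and *Flt1*. In CKO the order was *Cdh5*, *Pecam1*, *Eng*, *Kdr*, *Emcn*, *Tie1*, *Cldn5*, *Tek*, *Flt1* and *Sox17*, and the ranges of neighbours were apart between *Cdh5* and *Pecam1*, between *Tek* and *Flt1* and between *Flt1* and *Sox17*. *Emcn*, whose WT values all lay below those of *Tie1*, stood above it in the CKO means, where the ranges overlapped.

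The members did not vary as a block. *Kdr*, *Flt1*, *Cdh5* and *Eng* were set apart mainly by a high WT replicate 1, at 0.77, 0.69, 0.66 and 0.44 above the gene's own mean on the log2 scale, while CKO replicate 1 lay between -0.42 and 0.06 for the same genes. *Pecam1* and *Emcn* were set apart mainly by a low CKO replicate 1, at -0.86 and -1.18, with WT replicate 1 at 0.20 and -0.08. In *Tek*, CKO replicates 1 and 2 stood about equally far from the mean, at -0.51 and 0.51. *Tie1*, *Cldn5* and *Sox17* showed both, with WT replicate 1 from 0.42 to 0.56 and CKO replicate 1 from -0.73 to -0.47. *Emcn* shared with *Tek* a high CKO replicate 2, at 0.73.

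**Figure D3:**
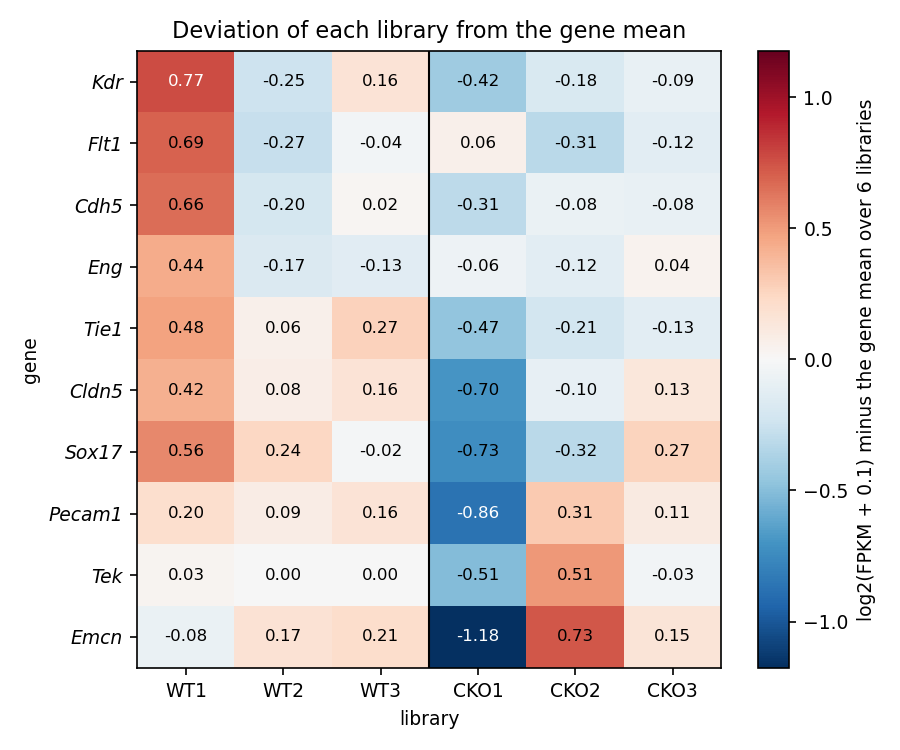
Deviation of each library (columns) from the mean of the gene over the 6 libraries (rows) on the log2(FPKM + 0.1) scale, red above and blue below the mean. The first WT library is highest in *Kdr* (0.77) and the first CKO library lowest in *Emcn* (-1.18), and the columns of replicates 2 and 3 are mostly pale outside *Emcn* and *Tek* in the second CKO library.

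Ratios between members within a library, chosen after the values were seen, gave the same picture without reference to library size. The ratio of *Pecam1* to *Cdh5* was 0.358 and 0.330 in WT replicate 1 and CKO replicate 1, and 0.545 to 0.647 in the other 4 libraries. The ratio of *Emcn* to *Cdh5* was 0.176 and 0.154 in the first replicates and 0.339 to 0.527 in the others. The first libraries of both groups thus held less *Pecam1* and *Emcn* per *Cdh5*, whichever the genotype. The ratio of *Tie1* to *Tek* was 1.85, 1.42 and 1.64 in the WT libraries, and it was below all of these in the CKO libraries, at 1.397, 0.801 and 1.26. CKO replicate 1 lay only just below WT replicate 2. The exact two-sided permutation test of this ratio gave p = 0.1, the smallest that 3 against 3 libraries allow. The ratio of *Kdr* to *Flt1* was 4.45 to 5.03 in WT and 3.09 to 4.95 in CKO.

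Within replicate number 1 all 9 tested members were lower in CKO than in WT, against 52.9% of all tested genes. Their median there was -0.97, and 8 of the 9 were at -0.5 or below, against 4.25% of all tested genes. The differences ran from -0.50 for *Eng* to -1.19 for *Kdr*. Within replicate number 2 only 3 of the 9 were lower (background 49.8%), with a median of 0.07 and 0 at -0.5 or below (background 9.16%), and *Tek* and *Emcn* stood at 0.51 and 0.56. Within replicate number 3, 8 of the 9 were lower (background 49.7%), but the median was -0.06 with 0 at -0.5 or below (background 7.13%), and *Tie1* was the furthest from 0 at -0.39. The member genes lower within all 3 numbers were *Flt1*, *Tie1* and *Cldn5*, 3 of 9, against 21.3% of all tested genes.

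**Figure D4:**
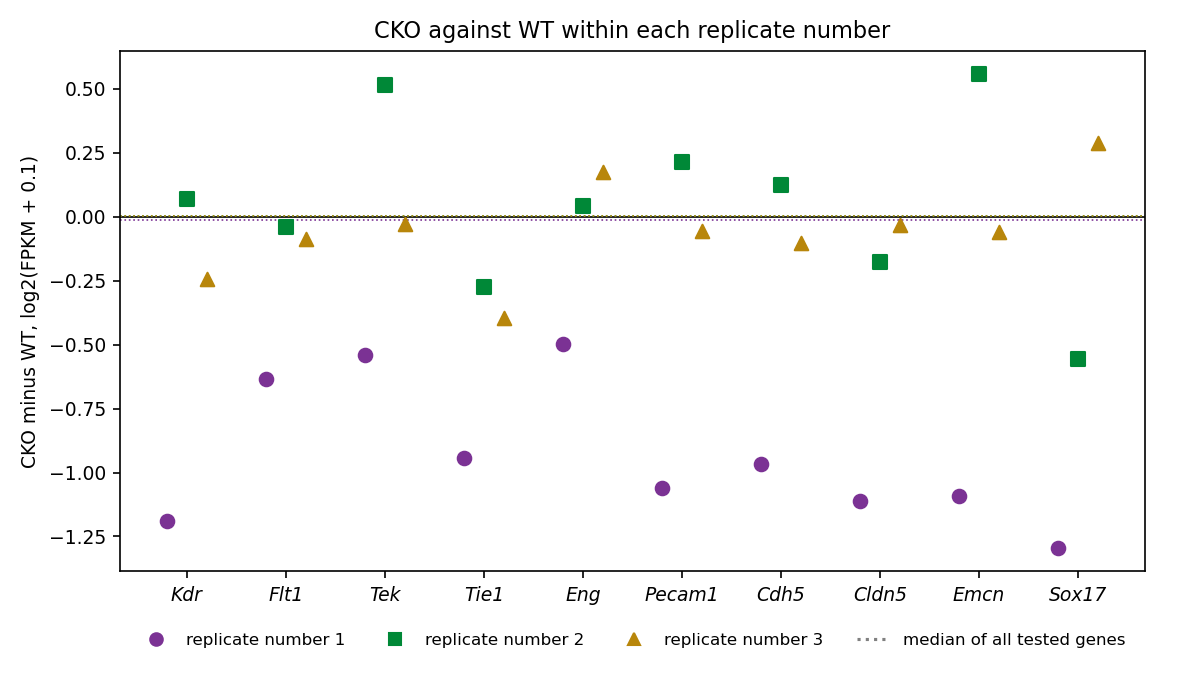
CKO minus WT on the log2(FPKM + 0.1) scale within replicate numbers 1 (circles), 2 (squares) and 3 (triangles), with the median of all tested genes as dotted lines near 0. Within number 1 the 10 genes lie between -1.29 and -0.50, while within numbers 2 and 3 they spread around 0, with only *Flt1*, *Tie1* and *Cldn5* below 0 in both.

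The contrast without the first replicates, added after the data were seen, left 4 of the 9 members below 0 and a median of 0.01. *Cdh5*, *Pecam1*, *Eng*, *Tek* and *Emcn* then stood between 0.01 and 0.25 and *Flt1*, *Kdr*, *Cldn5* and *Tie1* between -0.34 and -0.06. With the replicate number as a block in limma, 0 of 9 were called, against 2.81% of all tested genes. The unadjusted p values under 0.05 were then those of *Tie1* (0.0045), *Cldn5* (0.0387) and *Kdr* (0.0395), against 10.2% of all tested genes lower in CKO. When the globin genes were left out, the rest rescaled and the block kept, *Tie1* was the only member past the adjusted threshold, at -0.64 with an adjusted p of 0.0441, against 3.83% of all tested genes. In that setting the median of all tested genes was itself shifted by -0.10.

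Other endothelial surface and junction genes stood much as the members did. Of 22 such genes 20 were tested, and all 20 were below 0, against 49.1% of all tested genes. The list had a median of -0.32 and 0 past the adjusted threshold in limma. An unadjusted p under 0.05 was found for 3 of the 20, against 5.46% of all tested genes lower in CKO. The list's median within replicate numbers 1, 2 and 3 was -0.79, -0.04 and -0.10. Within number 1, 17 of the 20 were at -0.5 or below, against 4.25% of all tested genes. The list's median was -0.12 without CKO replicate 1 and -0.096 with replicates 2 and 3 alone. *Plvap*, which encodes the diaphragm protein of fenestrated capillaries, was the most abundant, at 11.1, 7.97 and 8.54 FPKM in WT and 5.39, 5.97 and 7.89 FPKM in CKO replicates 1, 2 and 3. Its groups did not overlap, and its difference of -0.52 had an adjusted p of 0.545, or 0.0913 with the block. *Cd34*, a sialomucin of endothelial and progenitor cells, followed the profile of *Pecam1*, at 1.81 FPKM in CKO replicate 1 and 3.76 to 4.64 FPKM in the other 5 libraries. *S1pr1*, a receptor for sphingosine 1-phosphate, was 3.29 to 3.79 FPKM in WT and 2.54 to 3.22 FPKM in CKO, without overlap (-0.31, adjusted p = 0.626). The groups also stood apart for *Rasip1* and *Egfl7*, named after their values were seen, at -0.42 each with adjusted p values of 0.441 and 0.514, so 4 of the 20 genes did not overlap, against 8.86% of all tested genes that were lower in CKO without overlap.

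Endothelial transcription factor genes were 13 tested of 14, 10 below and 3 above 0, with a median of -0.22 (-0.080 without WT replicate 1) and 0 called. With replicates 2 and 3 alone 6 of this list were called, against 1863 of 12319 tested genes. The 3 above 0, named after their values were seen, were *Tal1*, *Lmo2* and *Lyl1*, factors that blood progenitors and red cells share with endothelium. *Tal1* was 16.3 to 21.0 FPKM in WT and 18.5, 29.2 and 25.7 FPKM in CKO replicates 1, 2 and 3, and *Lmo2* was 15.5 to 16.9 FPKM in WT and 16.1, 21.5 and 20.9 FPKM in CKO. Both were high in the CKO libraries that were also richest in globin, and a link between these levels was not tested. *Elk3*, an ETS factor also found in mesenchyme, was 18.8 to 22.5 FPKM over the 6 libraries. *Sox18*, a SoxF factor, and *Erg*, an ETS factor, named after their values were seen, stood at -0.51 and -0.52 with adjusted p values of 0.473 and 0.651 (0.0728 and 0.0601 with the block). *Sox18* was 2.63 to 3.73 FPKM in WT and 2.07 to 2.46 FPKM in CKO. Unlike the members, this list had a similar median within each number, at -0.24, -0.14 and -0.20.

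Arterial genes were 8 of 12 tested above 0, against 50.9% of all tested genes. At an unadjusted p under 0.05 in limma, 2 were higher and 0 lower, against 2.84% and 5.46% of all tested genes. The arterial median was 0.17, with 0 called. That median was 0.055 without CKO replicate 1, 0.064 without WT replicate 2 and 0.060 with globin genes left out. The most abundant of them, *Unc5b*, *Efnb2* and *Hey1*, a guidance receptor, an ephrin and a Notch target, are also known in limb mesenchyme, at 14.4 to 21.3, 12.3 to 17.8 and 13.0 to 17.6 FPKM. Venous and lymphatic genes were 3 above and 5 below 0 among 8 tested, with a median of -0.02 and 0 called. Their most abundant genes were *Ephb4*, *Nrp2* and *Nr2f2*, at 35.0 to 51.2, 22.9 to 29.2 and 8.04 to 13.7 FPKM, and likewise include mesenchymal expression in the limb. *Flt4*, named after its values were seen, was 0.812 to 1.85 FPKM in WT and 0.685 to 0.764 FPKM in CKO. It was lower without overlap, as for 8.86% of all tested genes (-0.57, adjusted p = 0.682 by limma), and stood at -1.29 within replicate number 1. Among arterial genes *Notch4*, also named after its values were seen, was lower without overlap (-0.33) and *Cxcr4* higher (0.48).

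Ligand genes of the member receptors were measured in the same libraries. Of 10 ligand genes 6 were tested, with 5 below 0, a median of -0.27 and 0 called. *Vegfa*, the ligand of *Kdr* and *Flt1*, was 18.7, 14.8 and 14.8 FPKM in WT replicates 1, 2 and 3 and 16.9, 10.02 and 11.4 FPKM in CKO replicates 1, 2 and 3. It was highest in the first replicate of each group, and its difference of -0.36 had an adjusted p of 0.712, or 0.106 with the block. *Vegfb*, a ligand of *Flt1*, was 17.8 to 20.1 FPKM in WT and 13.4 to 17.6 FPKM in CKO. It was lower without overlap, as for 8.86% of all tested genes (-0.29, adjusted p = 0.624 by limma). *Vegfd*, a ligand of the lymphatic receptor *Flt4*, which is not a member, was 2.92 to 4.31 FPKM in WT and 3.15 to 3.67 FPKM in CKO. It was the 1 tested gene of this list that was not below 0. Within replicate numbers 1, 2 and 3 the median of the ligands was -0.17, -0.51 and -0.19, and that of the members was -0.97, 0.07 and -0.06. A link between ligand and member levels was not tested.

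Sprouting genes, which mark the tip cells that lead new vessels, held the 1 gene of the vessel lists that passed the adjusted threshold in limma with the block and all genes kept, against 2.81% of all tested genes. *Apln*, the apelin ligand made by tip cells, was 2.48, 1.78 and 2.56 FPKM in WT replicates 1, 2 and 3 and 1.597, 1.08 and 1.53 FPKM in CKO replicates 1, 2 and 3. The difference of -0.66 ± 0.21 (SE) was present within each number at -0.61, -0.67 and -0.71, with an adjusted p of 0.468 by limma and 0.0397 with the block. The list had 8 tested of 10, 3 above and 5 below 0, with a median of -0.15 and 0 called without the block. *Cxcr4*, a chemokine receptor of tip cells and of many other cells, was 2.51 to 2.77 FPKM in WT and 3.64 to 3.80 FPKM in CKO, higher without overlap as for 5.63% of all tested genes (0.48, adjusted p = 0.340, or 0.0674 with the block). *Igfbp3* and *Kcne3*, the other abundant genes of the list, overlapped between the groups at 9.73 to 17.7 and 1.24 to 2.91 FPKM.

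**Figure D5:**
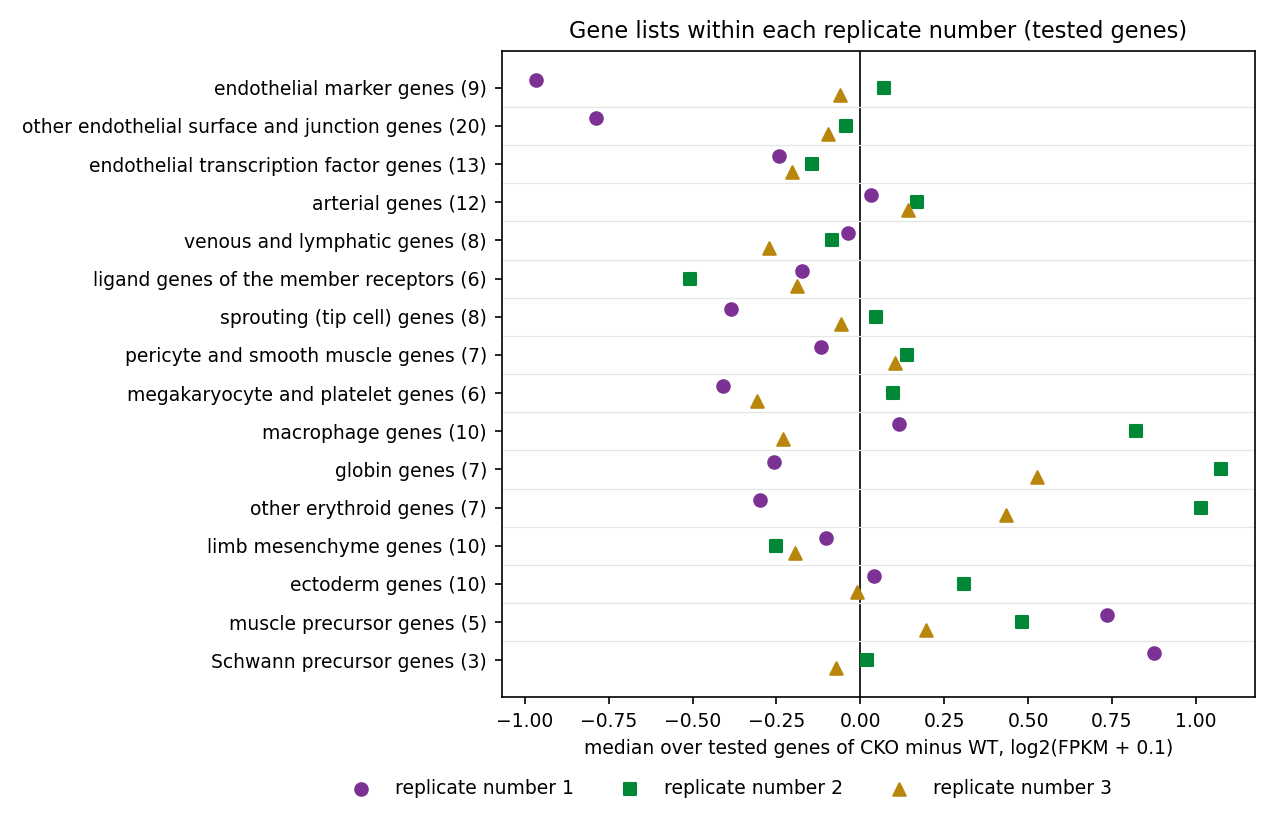
Median over the tested genes of each list of CKO minus WT on the log2(FPKM + 0.1) scale, within replicate numbers 1, 2 and 3, with the number of tested genes in parentheses. The endothelial marker genes and the other endothelial surface and junction genes have their lowest medians within number 1 (-0.97 and -0.79), and the globin and other erythroid genes their highest within number 2 (1.07 and 1.02).

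Genes of the cells that accompany vessels were read in the same way, and in none of these lists was a gene called by limma, with or without the block, when all libraries and genes were kept. Pericyte and smooth muscle genes were 4 above and 3 below 0 among 7 tested of 11, with a median of 0.08 and a summed level of 71.4 to 75.7 FPKM in WT and 71.7 to 78.7 FPKM in CKO. *Pdgfrb* and *Notch3*, receptor genes of pericytes that limb mesenchyme also uses, were 21.1 to 35.1 and 16.2 to 29.2 FPKM over the libraries. *Acta2*, smooth muscle actin, was 2.46 FPKM in WT replicate 1, 7.82 FPKM in CKO replicate 1 and 15.6 to 23.1 FPKM in the other 4 libraries. Other pericyte genes of the list, named after their values were seen, were low. *Kcnj8* was 0 to 0.033 FPKM, *Abcc9* 0.225 to 0.682 FPKM, *Rgs5* 0.323 to 0.769 FPKM and *Cspg4* 0.731 to 1.26 FPKM. Megakaryocyte and platelet genes, some of whose cells carry *Pecam1*, were 5 of 6 below 0 with a median of -0.32 (-0.080 without CKO replicate 1 and -0.60 without CKO replicate 2), and their summed level was 18.6 to 30.0 FPKM in WT and 11.9 to 33.4 FPKM in CKO. *Pf4*, a platelet chemokine, was 3.68 FPKM in CKO replicate 1 and 7.46 FPKM in WT replicate 1, against 12.1 to 17.7 FPKM in the other 4 libraries. *Ppbp* and *Itga2b*, a chemokine and an integrin of the same lineage, were 3.47 to 9.31 and 2.097 to 3.47 FPKM. Of the 6 tested, 3 were lower in CKO without overlap, against 8.86% of all tested genes. These were *Itga2b* (-0.36) and, named after their values were seen, *Gp1bb* (-0.71) and *Treml1* (-0.67), with adjusted p values of 0.553 to 0.680 by limma. *Gp1bb* shares exon bases with *Sept5* on the same strand. Macrophage genes were 9 of 10 above 0 with a median of 0.34 and a summed level of 29.4 to 46.5 FPKM in WT and 31.1 to 67.1 FPKM in CKO. Leaving out 1 library gave a median from 0.034 (CKO replicate 2) to 0.57 (CKO replicate 1). Their most abundant genes, *Lyz2*, *C1qb* and *Tyrobp*, were highest in CKO replicate 2, at 17.0, 9.65 and 9.55 FPKM.

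Red cell genes also varied between libraries. The 7 globin genes were all above 0, with a median of 0.43 and 0 called, and their summed level was 37551 to 63707 FPKM in WT and 30642 to 142363 FPKM in CKO, with CKO replicate 1 the lowest and CKO replicate 2 the highest. *Hbb-y*, *Hbb-bh1* and *Hba-x*, the embryonic globins, held most of it. The globin median was 0.089 without CKO replicate 2 and 1.02 without CKO replicate 1. The 7 other erythroid genes tested were also all above 0, with a median of 0.37 and a summed level of 503 to 587 FPKM in WT and 424 to 1090 FPKM in CKO. Their median was 0.046 without CKO replicate 2 and 0.77 without CKO replicate 1. *Slc4a1* and *Alas2*, a red cell anion exchanger and a heme synthesis enzyme, were each lowest in CKO replicate 1 and highest in CKO replicate 2. CKO replicate 1 had the lowest level of the 6 libraries for 8 of the 10 members, all but *Flt1* and *Eng*, and the lowest summed globin, other erythroid and platelet levels. WT replicate 1 had the highest level of the 6 libraries for 7 of the 10 members, all but *Pecam1*, *Tek* and *Emcn*, and the next lowest of the same 3 sums. The part of these differences in the member results was not tested. Limb mesenchyme genes, the cells in which Cre acts, were 9 of 10 below 0 with a median of -0.16 and a summed level of 381 to 415 FPKM in WT and 344 to 368 FPKM in CKO, and their most abundant genes *Twist1*, *Col3a1* and *Prrx1* were 83.0 to 114, 55.3 to 76.1 and 51.6 to 62.0 FPKM.

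The genes whose profile over the 6 libraries was most like the mean of the members were named by Pearson's r, as a description over 6 libraries that share the high WT replicate 1 and the low CKO replicate 1. *Tubb1*, a beta-tubulin of platelets, came first (r = 0.987), at 3.67, 2.79 and 3.20 FPKM in WT and 2.12, 3.12 and 3.07 FPKM in CKO replicates 1, 2 and 3. *Cd93*, an endothelial lectin-like receptor, came next (r = 0.984), at 3.61, 2.41 and 2.65 FPKM in WT and 1.70, 2.43 and 2.56 FPKM in CKO. The next were *Apold1* (0.970), *Scarf1* (0.969), *Mcm8* (0.963), *Arhgef15* (0.959), *Frmd4b* (0.953), *Chfr* (0.945), *Pcdh12* (0.944) and *Mmrn2* (0.940). Of these 10 genes, *Cd93* and *Mmrn2* were in a list of other endothelial genes. All 10 were lower in CKO within replicate number 1, by -0.31 for *Frmd4b* to -1.15 for *Mmrn2*, against 52.9% of all tested genes. That direction follows from how the 10 genes were picked and is not a separate result. None passed the adjusted threshold between CKO and WT in limma, with adjusted p values from 0.723 to 0.914.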

How the data were processed

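Stranded mRNA-seq libraries of 3 WT and 3 CKO limb bud cell samples were analysed. The authors deposited FPKM per gene, as given in 1 table, and the submitters' processing notes name cutadapt 2.5, HISAT2 2.1.0, featureCounts 1.6.3 and the mm10 build without assigning them to assays. Of the gene IDs, 99.864% were found in GENCODE vM21 on GRCm38, which gave positions and exon lengths. FPKM times exon length came out as whole reads, within 0.1 read, in all libraries for 92.7% of genes, which gave the read numbers. Recovered reads summed to 0.947 to 1.11 times the library size, the highest in CKO replicate 2, and how that size was set is not given in the sources used here. In the shallowest library 18.0 reads give 0.5 FPKM at an exon length of 2000 bases.

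The log2(FPKM + 0.1) values of genes with a mean of at least 0.5 FPKM were compared with limma 3.58.1 (R 4.3.3, eBayes with trend), with Benjamini-Hochberg adjustment over all 12305 genes tested. A difference on this scale understates that of low genes. The steps were tested on simulated data. Deviations from the group means correlated at 0.636, 0.443 and 0.266 between WT and CKO libraries of replicate numbers 1, 2 and 3. Equal numbers were treated as pairs, although the labels give no shared litter or day. WT replicate 2 correlated more with CKO replicate 3 (0.495) and WT replicate 3 more with CKO replicate 2 (0.307). The correlations thus set number 1 apart but do not settle the pairing of numbers 2 and 3.

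Members, lists and alternatives were chosen with earlier results of these data known. The lists, written from general knowledge, hold other endothelial surface and junction genes, endothelial transcription factors, arterial, venous and lymphatic, sprouting and ligand genes, and genes of pericytes and smooth muscle, macrophages, platelets, globins, other red cell genes, mesenchyme, ectoderm, muscle precursors and Schwann precursors. Named were the members, *Hnrnpk*, the 3 most abundant genes of each list, any list gene past an adjusted p of 0.05 with or without the block, and the 10 genes most correlated with the members' mean; others are said to be named after their values were seen, and some genes that this rule names are not reported here. The alternatives were other pseudocounts (0.5 and 1), filters and scalings, removal of globin genes, no trend, the replicate block and each library left out, and, added after the data were seen, voom on the recovered reads with and without the block, replicates 2 and 3 alone, and globin removal with the block. Promoter windows came from RefSeq. Analyses used Python 3.11.15, pandas 2.3.3, scipy 1.17.1 and matplotlib 3.10.9.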

Additional observations from a re-analysis of the deposited data

How the results depend on the processing

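No member was called under any of 19 alternatives except *Tie1* with globin genes left out and the replicate block (1 of 9), and the members' median ranged from -0.48 to 0.011, the last with replicates 2 and 3 alone. Leaving out 1 library gave a median of -0.48 to -0.18 and 0 members called each time. Single members reversed sign in these cases: without CKO replicate 1, *Pecam1* (0.057), *Tek* (0.23) and *Emcn* (0.34); without WT replicate 1, *Flt1* (0.028) and *Eng* (0.10); with replicates 2 and 3 alone, *Pecam1* (0.080), *Cdh5* (0.011), *Tek* (0.24), *Emcn* (0.25) and *Eng* (0.11); and *Tek* alone under quantile normalization (0.060) and with voom on recovered reads and the block (0.052). At the other end, leaving out 1 library took *Pecam1* to -0.53, *Tek* to -0.28 and *Emcn* to -0.61 (each without CKO replicate 2) and *Flt1* to -0.45 and *Eng* to -0.20 (each without WT replicate 2). *Kdr*, *Tie1* and *Cldn5* stayed below 0 in all alternatives run, but leaving out 1 library moved *Kdr* from -0.18 (WT replicate 1) to -0.69 (WT replicate 2), *Cldn5* from -0.20 (CKO replicate 1) to -0.62 (CKO replicate 3) and *Cdh5* from -0.066 (WT replicate 1) to -0.50 (WT replicate 2). The count over all genes was 8, with 13 under quantile normalization, 4 with globin genes left out, 346 with the replicate block, 628 with voom on recovered reads and the block, 1863 with replicates 2 and 3 alone, 471 with globin genes left out and the block, and 1 to 23 when 1 library was left out (23 without CKO replicate 1, 3 without WT replicate 2, and 1 without each of WT replicate 3 and CKO replicates 2 and 3). The block changed no other member's call. Among list genes, voom with the block called *Apln*, *Erg*, *Nrp1*, *Acta2*, *Met*, *Twist2*, *Hba-a2* and *Hbb-bt*, and globin removal with the block called *Apln*, *Erg*, *Plvap*, *Notch3* and *Twist2*. Over all tested genes these settings called 628 of 12300 and 471 of 12311. With replicates 2 and 3 alone, 6 endothelial transcription factor genes were called, against 1863 of 12319 tested genes. With 1 library left out, medians of other lists ran from -0.17 to 0.0046 for sprouting genes (the last without CKO replicate 1), from -0.058 (without WT replicate 1) to 0.15 (without CKO replicate 1) for pericytes and smooth muscle, and from -0.086 to 0.020 (without WT replicate 3) for venous and lymphatic genes. Leaving globin genes out moved the median of all genes by -0.10 and the share of positive differences with it (3835 above and 8476 below 0). The causes were not tested. Depth limits *Sox17* (17 to 56 reads) and *Cldn5* (39 to 94 reads) most.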

Other observations

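Genes of muscle precursors, Schwann precursors and ectoderm also differed between libraries. Over all tested genes 50.9% were above 0. Muscle precursor genes were 5 of 5 tested above 0, with a median of 0.50 (0.20 without WT replicate 1) and 0 called. Their summed level was 13.6 FPKM in WT replicate 1 against 25.6 to 34.6 FPKM in the other 5 libraries. *Myog*, a factor of muscle differentiation, was 2.23 FPKM in WT replicate 1 and 6.84 to 15.5 FPKM in the others. *Myod1*, another such factor, was 1.97, 6.80 and 6.63 FPKM in WT replicates 1, 2 and 3. In CKO replicates 1, 2 and 3 it was 7.33, 6.82 and 7.50 FPKM, higher without overlap (0.68, adjusted p = 0.739 by limma). *Met*, the receptor of migrating muscle precursors, was 3.93 to 4.60 FPKM in WT and 5.38 to 6.90 FPKM in CKO. It was higher without overlap, as for 5.63% of all tested genes (0.50, adjusted p = 0.382 by limma, 0.0576 with the block). *Pax3*, a factor of muscle precursors and neural crest named after its values were seen, was instead higher in the first WT and CKO libraries, at 3.30 and 3.14 FPKM, than in the other 4, at 1.13 to 2.01 FPKM. Schwann precursor genes were 3 of 3 tested above 0, with a median of 0.33 that turned to -0.21 without WT replicate 1 and was 0.65 without WT replicate 2, and summed to 3.27 FPKM in WT replicate 1 against 6.56 to 8.29 FPKM in the others. *Erbb3* and *Sox10*, a receptor and a transcription factor of these cells, were 1.47 to 3.97 and 0.491 to 2.02 FPKM. Ectoderm genes were 8 of 10 above 0, with a median of 0.15 (-0.057 without WT replicate 1 and 0.28 without CKO replicate 1), and summed to 48.1 and 52.9 FPKM in the first WT and CKO libraries against 68.7 to 83.1 FPKM in the other 4. *Krt5* and *Krt14*, basal keratins, were lowest in WT replicate 1, at 6.54 and 2.08 FPKM, and *Krt18*, a keratin of simple epithelium, was 7.06 to 10.9 FPKM over all libraries. *Fgf8*, a growth factor of the apical ridge named after its values were seen, was 10.6 and 10.5 FPKM in the first WT and CKO libraries and 6.87 to 9.10 FPKM in the other 4.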
